A study of Homo sapiens with 4 samples.

Results

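The genes described here are 10 genes of the IL-6 cytokine family and its signalling route, read from RNA-seq of H1792 cells. They were chosen by name, with earlier results of these data known. They are the ligands IL6, IL11, LIF and CLCF1, and the receptor chains IL6R, IL6ST, LIFR and OSMR. The rest are the transcription factor STAT3 and its feedback inhibitor SOCS3. All 10 symbols had a row among the 61228 genes of the count files, and all 10 passed the filter on low counts, which kept 19159 genes for testing. H1792 is an established human lung cancer line, labelled wild type in genotype. The 2 control libraries came from cells kept with the solvent DMSO, and the 2 treated libraries from cells kept with ACBI1 for 96 h at a dose the labels give as 1 mM. ACBI1 is a PROTAC that brings the SWI/SNF ATPases SMARCA2 and SMARCA4, and the subunit PBRM1, to the VHL ubiquitin ligase for degradation; proteins were not measured here. PROTACs are rarely dosed in the millimolar range, and the counts cannot show whether the unit is right. The labels number the 2 libraries of a group as replicates without saying that they were separate cultures, so the p-values measure the spread between these libraries, which may be technical.

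Most ligands of the IL-6 family bind a private receptor chain and signal through the shared chain IL6ST; IL-31, which uses IL31RA with OSMR, does not. IL6 and IL11 join IL6R or IL11RA with a pair of IL6ST chains, whereas LIF uses LIFR with IL6ST, and oncostatin M (OSM) uses OSMR or LIFR with IL6ST. CLCF1 acts through CNTFR, LIFR and IL6ST. The bound chains activate Janus kinases, which phosphorylate STAT3. STAT3 then enters the nucleus and switches on target genes, among them SOCS3, whose protein blocks the same receptor complex. In lung cancer cells this route is known for autocrine signalling by secreted IL-6 and for its overlap with NF-kB driven inflammation.

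Gene counts summed to between 64281850 and 86010100 reads per library. The text gives CPM, which are counts per 1000000 on library sizes scaled by TMM, and log2 changes of ACBI1 against DMSO from edgeR's quasi-likelihood test. Genes with a p under 0.05 after Benjamini-Hochberg adjustment over all genes tested were called. By that rule 3331 genes were called, which is 17.4% of those tested, with 10.6% called lower and 6.75% called higher. Leaving out ACBI1 replicate 1 gave 1379 calls, and leaving out ACBI1 replicate 2 gave 1807. No gene count can separate fewer cells expressing a gene from less RNA per cell. Of markers of epithelium, the tissue in which lung carcinomas arise, the keratins were present: 6 epithelial markers summed to 982 and 1035 CPM with DMSO and to 323 and 202 CPM with ACBI1. CDH1, the epithelial cadherin, was at most at 0.222 CPM in any library. Of the 6 leukocyte markers, CD3E had 0 counts in each library and PTPRC was at most at 0.0278 CPM, and the 6 together summed to 0.405 to 1.10 CPM.

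Among the 10 genes, 6 were called lower with ACBI1 and none higher, beside 10.6% of all tested genes called lower. These genes were chosen with earlier results of these data known, so the excess over that share is a description only. By edgeR, 0 were higher even at an unadjusted p under 0.05, and DESeq2 and limma-voom also called 6 lower and 0 higher. The 6 were the 4 ligands, the IL-6 binding chain IL6R and the shared chain IL6ST. LIFR, OSMR, STAT3 and SOCS3 were not called. The median log2 change of the 10 was -1.52, against 0.01 over all genes tested. In the same 6 genes both ACBI1 libraries lay below both DMSO libraries, a separation that 32.2% of all tested genes showed in that direction. In the other 4 genes the groups overlapped.

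**Figure D1:**
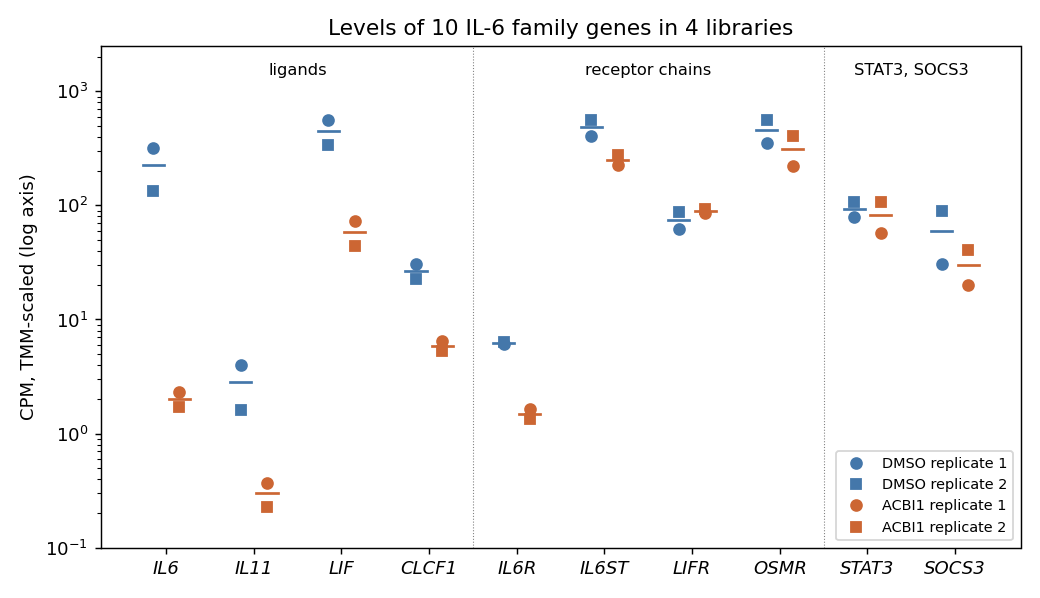
CPM of the 10 genes (log axis) in each of the 4 libraries, with DMSO in blue and ACBI1 in orange, circles for replicate 1, squares for replicate 2 and a bar at the mean of each group. The 4 ligands, IL6R and IL6ST have both ACBI1 libraries below both DMSO libraries, while the points of LIFR, OSMR, STAT3 and SOCS3 overlap between groups.

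IL6, the cytokine that gives the family its name, lies on chromosome 7 from 22725884 to 22732002 on the plus strand (GRCh38). It was at 316 and 134 CPM in DMSO replicates 1 and 2, and at 2.33 and 1.69 CPM in ACBI1 replicates 1 and 2. The DMSO libraries differed from each other by 2.36-fold, a wider gap than in 92.3% of tested genes, and both lay far above the ACBI1 libraries. This rested on 35372 counts against 320. IL6 fell 112-fold in mean CPM, to 0.895% of the DMSO level, with a log2 change of -6.80 (SE 0.52, 95% interval -8.06 to -5.54, edgeR adjusted p 0.00231). Only 119 of the 19159 tested genes had a lower log2 change, and among the 2284 genes that averaged 100 CPM or more with DMSO only 9 did. Without DMSO replicate 1 the log2 change of IL6 was -6.04, and IL6 was called with each library left out in turn.

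The annotation places an antisense gene across 20.7% of the exonic length of IL6. The coding gene STEAP1B, also on the opposite strand, shares 46 exonic bases with IL6. STEAP1B had 1014 and 895 counts with DMSO and 1538 and 1299 with ACBI1. The strand setting of the counting is not given in the sources used here, so reads of these genes and IL6 could be mixed. The antisense gene listed as IL6-AS1 in the files had 43 and 42 counts with DMSO and 33 and 27 with ACBI1, against 25729, 9643, 209 and 111 for IL6 in the same order.

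LIF, leukemia inhibitory factor, is a ligand known for keeping stem cells undifferentiated and for its roles in inflammation. It lies on chromosome 22 from 30240447 to 30246851 on the minus strand (GRCh38). Its levels were 556 and 339 CPM with DMSO and 72.8 and 43.9 CPM with ACBI1, so the groups were well apart. LIF fell 7.68-fold, a log2 change of -2.94 (SE 0.35, edgeR adjusted p 0.00645). OSM, the gene of the related ligand oncostatin M, lies 15977 bases from LIF with no coding gene between them. With 2 and 3 counts under DMSO and 0 and 1 under ACBI1, OSM was too rare to be tested.

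IL11 encodes a ligand known for its part in fibrosis and in platelet formation. On chromosome 19 it runs from 55364389 to 55370463 on the minus strand (GRCh38). It was scarce, at 4.03 and 1.61 CPM with DMSO and 0.369 and 0.229 CPM with ACBI1, or 444 counts against 48. Even the lower DMSO library was above both ACBI1 libraries. IL11 fell 9.44-fold, a log2 change of -3.22 (SE 0.58, adjusted p 0.0181). The DMSO libraries differed by 2.50-fold, a wider gap than in 93.5% of tested genes. Without DMSO replicate 1 the log2 change of IL11 was -2.41.

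CLCF1, cardiotrophin-like cytokine factor, acts on cells that carry CNTFR. It lies on chromosome 11 from 67364168 to 67374177 on the minus strand (GRCh38). CLCF1 was at 30.5 and 22.6 CPM with DMSO and at 6.48 and 5.28 CPM with ACBI1, and the replicates of each group lay close together. It fell 4.52-fold, a log2 change of -2.17 (SE 0.24, adjusted p 0.00534). Its receptor chain CNTFR had 1 and 0 counts with DMSO and 5 and 1 with ACBI1, and could not be tested.

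Because the 4 ligands fell together, the bases before the transcription start were searched for motifs of factors known to act on cytokine genes. RefSeq start sites (GRCh38.p14) were found for 8 of the 10 members, with 11 windows of 250 bases before a start, and not for LIF or CLCF1. The motifs, searched on both strands, were the STAT motif TTCNNNGAA, the AP-1 motif TGANTCA, the C/EBP motif TTGCNNAA and the NF-kB motif. Of the 35116 windows of that length in the table, 6.57% held the STAT motif, 6.57% the AP-1 motif, 9.05% the C/EBP motif and 9.96% the NF-kB motif. IL6 held a C/EBP match 155 to 148 bases before the start and an NF-kB match 73 to 64 bases before it, and the 2 did not overlap. IL11 held an AP-1 match 96 to 90 bases before its start, and IL6ST an NF-kB match, read from the opposite strand, 53 to 44 bases before its start. LIFR, whose transcripts were not called, held a STAT match in 2 of its 3 windows, and in the farthest upstream of these it lay 165 to 157 bases before the start. The other matches were a C/EBP match in another LIFR window and one in OSMR. That LIFR window, which also held the other STAT match, lay wholly within annotated exons, as did the OSMR match. The windows of IL6R, STAT3 and SOCS3 held none of these letters, which says nothing of the factors themselves. The SOCS3 windows ran from 78360926 to 78361175 and from 78359668 to 78359917. The bases just before the annotated gene start of SOCS3 at 78360077 were thus not searched. The same holds for IL6, with an annotated start at 22725884 and a window from 22726950. It also holds for LIFR, with an annotated start at 38608354 and windows ending at 38595655 or lower. The stretches are shown for the genes with a window that fell, IL6R without a match among them. Of the uncalled genes, only the farthest upstream window of LIFR is shown. The other LIFR windows and those of OSMR, STAT3 and SOCS3 are not, so the stretches are no balanced contrast. Bases of annotated exons are left out, and motif matches are in capitals.
IL6, chr7:22726950-22727146, plus strand: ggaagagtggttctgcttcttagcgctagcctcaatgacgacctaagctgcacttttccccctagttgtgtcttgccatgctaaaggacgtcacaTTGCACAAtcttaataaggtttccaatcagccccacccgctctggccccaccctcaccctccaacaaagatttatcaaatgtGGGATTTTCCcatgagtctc
IL11, chr19:55370464-55370713, minus strand: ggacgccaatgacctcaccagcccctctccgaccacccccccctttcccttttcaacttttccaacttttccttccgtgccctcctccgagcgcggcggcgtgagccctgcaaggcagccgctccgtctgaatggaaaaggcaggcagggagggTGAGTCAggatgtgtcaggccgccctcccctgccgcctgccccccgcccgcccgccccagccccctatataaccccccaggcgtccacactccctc
IL6R, chr1:154405093-154405192, plus strand: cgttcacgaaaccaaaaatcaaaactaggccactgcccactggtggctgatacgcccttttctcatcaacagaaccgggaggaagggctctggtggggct
IL6ST, chr5:55994994-55995166, minus strand: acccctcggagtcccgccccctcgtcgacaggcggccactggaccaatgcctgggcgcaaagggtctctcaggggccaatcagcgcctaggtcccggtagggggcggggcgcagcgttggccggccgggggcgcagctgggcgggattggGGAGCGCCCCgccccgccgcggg
LIFR, chr5:38595406-38595655, minus strand: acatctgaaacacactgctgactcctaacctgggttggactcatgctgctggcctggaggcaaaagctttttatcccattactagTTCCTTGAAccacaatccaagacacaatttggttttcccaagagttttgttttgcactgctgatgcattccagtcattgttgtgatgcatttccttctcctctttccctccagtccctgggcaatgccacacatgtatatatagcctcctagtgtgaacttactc
A match is a description of letters, and binding was not measured in these libraries.

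IL6R encodes the chain that binds IL-6 itself, in a membrane form or a soluble one that gene counts cannot tell apart. It lies on chromosome 1 from 154405193 to 154469450 on the plus strand (GRCh38). IL6R was at 6.10 and 6.35 CPM with DMSO and at 1.64 and 1.34 CPM with ACBI1, the closest DMSO replicates among the 10 genes. It fell 4.17-fold, a log2 change of -2.06 (SE 0.30, adjusted p 0.01001). IL11RA, the matching chain for IL11, had 27 counts in each DMSO library and 50 and 47 in the ACBI1 libraries. Its log2 change of 0.85 (95% interval -0.15 to 1.84) was not called (adjusted p 0.204), and 17.7% of its exonic length overlaps other genes.

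IL6ST, the signalling chain shared by the family, lies on chromosome 5 from 55935095 to 55994993 on the minus strand (GRCh38). Its levels were 409 and 558 CPM with DMSO and 225 and 276 CPM with ACBI1, so that the lowest DMSO library was above the highest ACBI1 library. IL6ST fell 1.93-fold, a log2 change of -0.95 (SE 0.22, adjusted p 0.0365). This call was the least firm of the 6. Without DMSO replicate 2 the log2 change of IL6ST was -0.71 (adjusted p 0.0670), without ACBI1 replicate 1 it was -0.80 (adjusted p 0.179) and without ACBI1 replicate 2 it was -1.11 (adjusted p 0.0732), none of them called. IL31RA, the receptor chain for IL-31, lies 12241 bases from IL6ST. It fell too, from 68.1 and 49.7 CPM to 26.1 and 25.1 CPM, a log2 change of -1.20 (SE 0.20, adjusted p 0.0141), but without ACBI1 replicate 1 it was not called (adjusted p 0.0546).

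OSMR and LIFR are neighbours on chromosome 5, read in opposite directions with a gap of 237503 bases and no coding gene between them. OSMR, from 38845858 to 38945596 on the plus strand, was at 353 and 566 CPM with DMSO and at 223 and 408 CPM with ACBI1. The higher ACBI1 library was above the lower DMSO library. The log2 change of -0.54 (95% interval -1.40 to 0.32) was not called (adjusted p 0.330). Between libraries of the same replicate number, OSMR was lower with ACBI1 each time. An edgeR fit that allowed for that number called OSMR lower (log2 change -0.57, adjusted p 0.00798). That fit called 4201 of the 19159 tested genes lower, where the main fit called 2037. The labels do not tie same-numbered libraries together. LIFR, from 38474963 to 38608354 on the minus strand, was at 62.2 and 88.0 CPM with DMSO and at 85.1 and 92.3 CPM with ACBI1. LIFR was the 1 gene of the 10 with a positive log2 change, 0.24 (95% interval -0.26 to 0.74, adjusted p 0.462), and it was not called. Its interval ends below a log2 change of 1 on either side, whereas that of OSMR reaches past -1. The difference between the changes of LIFR and IL6ST, the chains that form the receptor for LIF, was not tested.

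STAT3, the transcription factor of the route, lies on chromosome 17 from 42313324 to 42388568 on the minus strand (GRCh38). It was at 79.0 and 108 CPM with DMSO and at 57.2 and 107 CPM with ACBI1. The higher libraries of both groups were nearly level, and the ACBI1 libraries differed from each other by 1.87-fold. The log2 change of STAT3 was -0.19 (95% interval -0.97 to 0.59, adjusted p 0.729), which leaves room for nearly a 2-fold fall. With 1 library left out it ranged from -0.72 to 0.20, so its sign was not fixed. Phosphorylated STAT3 protein, the active form, was not measured.

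SOCS3, the feedback inhibitor, lies on chromosome 17 from 78356778 to 78360077 on the minus strand (GRCh38). Its levels were 30.5 and 89.4 CPM with DMSO and 20.0 and 40.4 CPM with ACBI1. The DMSO libraries differed by 2.94-fold, a wider gap than in 95.7% of tested genes, and the higher ACBI1 library exceeded the lower DMSO library. The log2 change of -0.99 (95% interval -2.32 to 0.33) was not called (adjusted p 0.255). Between libraries of the same replicate number, SOCS3 too was lower with ACBI1 each time. The edgeR fit that allowed for that number called it lower (log2 change -0.88, adjusted p 0.000600), with the same limits as for OSMR. In fits that ignored the number, the value moved strongly with single libraries of both groups. Without DMSO replicate 2 the log2 change of SOCS3 was -0.02 (adjusted p 0.983), and without DMSO replicate 1 it was -1.56 and was called (adjusted p 0.00275). With ACBI1 replicate 2 left out it was -1.59 and not called (adjusted p 0.132).

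**Figure D2:**
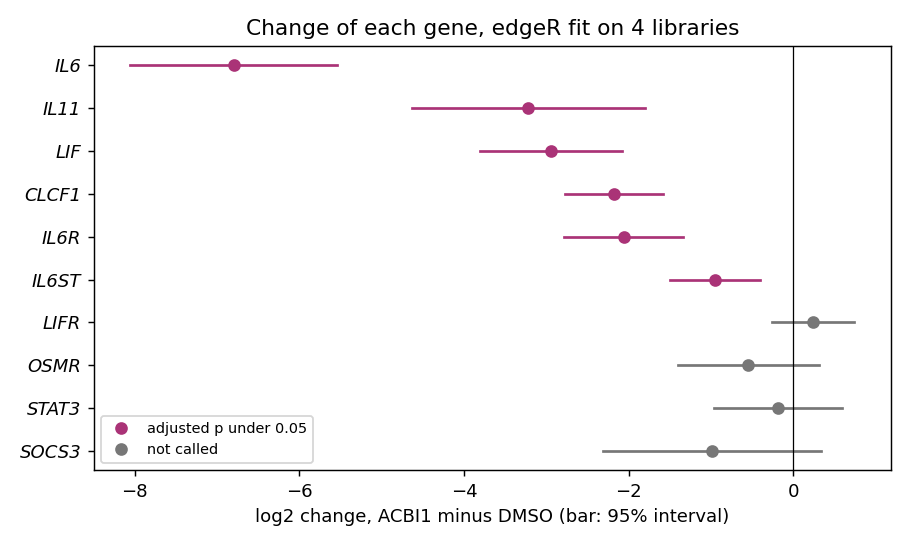
log2 change of ACBI1 minus DMSO for each of the 10 genes (x axis), with the estimate as a point and the 95% interval from the edgeR fit as a bar; called genes are purple and the others grey. The 6 called genes run from -6.80 for IL6 to -0.95 for IL6ST, and the 4 intervals that cross 0 belong to LIFR, OSMR, STAT3 and SOCS3.

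Levels were compared between genes only after division by exonic length, as CPM per kb of exon. With DMSO the order was LIF at 113 ± 38.7, IL6 at 109 ± 62.2, OSMR at 64.0 ± 21.0 and IL6ST at 52.1 ± 11.3 CPM per kb (SD, n = 2). These 4 overlapped between neighbours in that order. SOCS3 at 21.9 ± 15.2, CLCF1 at 13.4 ± 2.80, STAT3 at 10.6 ± 2.32 and LIFR at 6.33 ± 1.54 CPM per kb (SD, n = 2) followed, each below IL6ST in both libraries. Their libraries overlapped between SOCS3 and CLCF1 and between CLCF1 and STAT3, and those of LIFR lay below those of STAT3. The lowest were IL11 at 1.06 ± 0.640 and IL6R at 0.965 ± 0.0273 CPM per kb (SD, n = 2), whose libraries overlapped.

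With ACBI1 the receptor chains headed the order, with OSMR at 43.9 ± 18.2 and IL6ST at 27.0 ± 3.92 CPM per kb (SD, n = 2), which did not overlap. LIF at 14.7 ± 5.15, SOCS3 at 11.0 ± 5.27 and STAT3 at 9.31 ± 3.99 CPM per kb came next and overlapped from one to the next, as did STAT3 with LIFR at 7.48 ± 0.424 CPM per kb (SD, n = 2). CLCF1 at 2.98 ± 0.430, IL6 at 0.973 ± 0.219, IL6R at 0.231 ± 0.0329 and IL11 at 0.112 ± 0.0370 CPM per kb (SD, n = 2) closed the order without overlap between neighbours. IL6 thus went from rank 2 of the 10 genes to rank 8, and OSMR from rank 3 to rank 1.

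**Figure D3:**
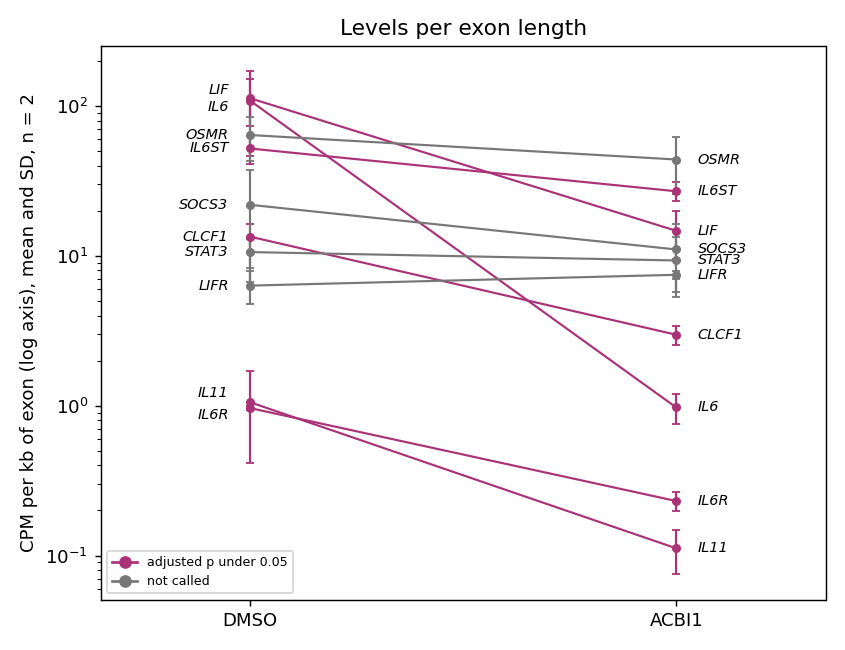
CPM per kb of exon (log axis) of the 10 genes, as the mean of 2 libraries with the SD, in DMSO and ACBI1; lines join the means of a gene, purple for called genes and grey for the others. The line of IL6 drops from rank 2 to rank 8, and those of LIFR and STAT3 are nearly flat.

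Of the 12 other ligands and receptors of the family, 7 could be tested, with a median log2 change of -0.17. In this list IL31RA was called lower and SORL1 higher, beside 10.6% and 6.75% of all tested genes. SORL1, a sorting receptor that binds the IL-6 receptor, rose from 9.33 and 20.5 CPM with DMSO to 38.5 and 54.4 CPM with ACBI1, a log2 change of 1.64 (SE 0.39, adjusted p 0.0379). All its ACBI1 values were above its DMSO values, a separation that 5957 of the 19159 tested genes showed in that direction. SORL1 was not called without ACBI1 replicate 2 (adjusted p 0.0924), and its log2 change was 2.31 without DMSO replicate 2. The ligand genes IL27 and IL31 were without a count in the 4 libraries, and a count of 0 allows up to 0.0335 to 0.0458 CPM.

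All 16 transducers and regulators were tested, and their median log2 change was -0.36. By edgeR 3 were called lower and none higher, beside 10.6% and 6.75% of all tested genes, with 1 higher at an unadjusted p under 0.05. DESeq2 called 5 lower and 0 higher, where it called 2604 of the 19159 genes lower, and limma-voom 3 and 0. SOCS1, a relative of SOCS3 that blocks Janus kinases, fell from 3.08 and 7.35 CPM to 1.02 and 0.778 CPM, a log2 change of -2.53 (SE 0.50, adjusted p 0.0230). It was not called without ACBI1 replicate 1 (adjusted p 0.0529) or ACBI1 replicate 2 (adjusted p 0.0619), and was -1.78 without DMSO replicate 2. PTPRE, a phosphatase known to restrain Janus kinase signalling, fell from 41.9 and 63.8 CPM to 12.6 and 13.2 CPM, a log2 change of -2.04 (SE 0.24, adjusted p 0.00602). It was called with each library left out. PTPN1, a phosphatase that acts on Janus kinases, fell from 104 and 84.9 CPM to 60.2 and 52.4 CPM, a log2 change of -0.75 (SE 0.18, adjusted p 0.0377). Without ACBI1 replicate 1 its adjusted p was 0.113, without ACBI1 replicate 2 it was 0.173 and without DMSO replicate 1 it was 0.0815, so the call of PTPN1 was lost each time. The Janus kinases themselves were singled out after their values were seen. JAK1 was at 229 and 219 CPM with DMSO and 171 and 159 CPM with ACBI1, with a log2 change of -0.44 (95% interval -0.82 to -0.05) that was not called (adjusted p 0.10999). For JAK2 the log2 change was -0.28 (adjusted p 0.533), and for TYK2 it was 0.19 (adjusted p 0.475).

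A list of 36 genes linked to STAT3 as targets in textbook accounts had 26 that could be tested. Their median log2 change was -1.24, and 18 were called lower and 1 higher, beside 10.6% and 6.75% of all tested genes. Many of these genes are also known targets of NF-kB or interferon, so the list does not single out STAT3. The list was chosen with earlier results of these data known, so its excess over all tested genes is a description only. Among its acute-phase genes, CRP, FGA, FGB and FGL1 had 0 counts in each library, and HP, LBP, A2M, FGG and SERPINA3 at most 7. HAMP had 4 and 0 counts with DMSO and 14 and 2 with ACBI1, and was not tested. SAA1 and SAA2 were high enough to be tested. Without ACBI1 replicate 1, fewer genes of the list were called, as was so over all genes tested.

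SAA1, an acute-phase gene, was at 9.12 and 17.1 CPM with DMSO and at 0.112 and 0.183 CPM with ACBI1, a fall with a log2 change of -6.49 (SE 0.51, adjusted p 0.00231). Its near-identical copy SAA2 had 104 and 180 counts against 1 and 3, with a log2 change of -6.08 (adjusted p 0.00645) that ranged from -7.22, with ACBI1 replicate 2 left out, to -5.31, with ACBI1 replicate 1 left out. Reads of SAA1 and SAA2 can be split or dropped, and both values carry that uncertainty. ICAM1, an adhesion receptor for leukocytes, fell from 216 and 156 CPM to 10.3 and 10.9 CPM, a log2 change of -4.13 (SE 0.23, adjusted p 0.00141). An antisense gene shares 22.0% of the exonic length of ICAM1. IER3, an immediate early gene, fell from 803 and 1285 CPM to 62.6 and 99.5 CPM, a log2 change of -3.69 (adjusted p 0.00366), and shares 26.5% of its exonic length with IER3-AS1.

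The other falls named by the rule were those of TNFAIP3, TIMP1, IRF1 and HIF1A. TNFAIP3, which encodes an inhibitor of NF-kB signalling, had a log2 change of -2.90 (adjusted p 0.00231). TIMP1, an inhibitor of matrix proteases, had one of -2.37 (adjusted p 0.00384). IRF1, an interferon-regulated transcription factor, had one of -2.23 (adjusted p 0.00396); a gene on the opposite strand shares 22.0% of its exonic length. HIF1A, the hypoxia-inducible factor, went from 325 and 489 CPM to 103 and 101 CPM, a log2 change of -1.99 (adjusted p 0.00636).

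The 4 uncalled targets with the highest mean CPM were MYC, JUNB, CCND1 and FOS, all of which have other well-known inputs. MYC was at 3762 and 4674 CPM with DMSO and 5794 and 7738 CPM with ACBI1, a log2 change of 0.68 (adjusted p 0.104). MYC was called higher without DMSO replicate 2 (adjusted p 0.0362), and by DESeq2 (adjusted p 0.0370), which called 2 targets higher. JUNB was at 492 and 1077 CPM with DMSO and 337 and 444 CPM with ACBI1, a log2 change of -1.01 (adjusted p 0.122), which was -1.46 and called without DMSO replicate 1 (adjusted p 0.000880) and -0.34 without DMSO replicate 2. DESeq2 called JUNB lower (adjusted p 0.0379). CCND1 had a log2 change of 0.20 (adjusted p 0.561). FOS was at 278 and 753 CPM with DMSO and 143 and 452 CPM with ACBI1, a log2 change of -0.79 (adjusted p 0.430). The change of FOS was -1.34 and called without DMSO replicate 1 (adjusted p 0.0402), and 0.09 without DMSO replicate 2, -0.18 with ACBI1 replicate 1 left out and -1.86 with ACBI1 replicate 2 left out. By edgeR the 1 target called higher was BIRC5, an inhibitor of apoptosis that is also a cell cycle gene, named because it stood alone, with a log2 change of 0.85 (SE 0.19, adjusted p 0.0330).

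**Figure D4:**
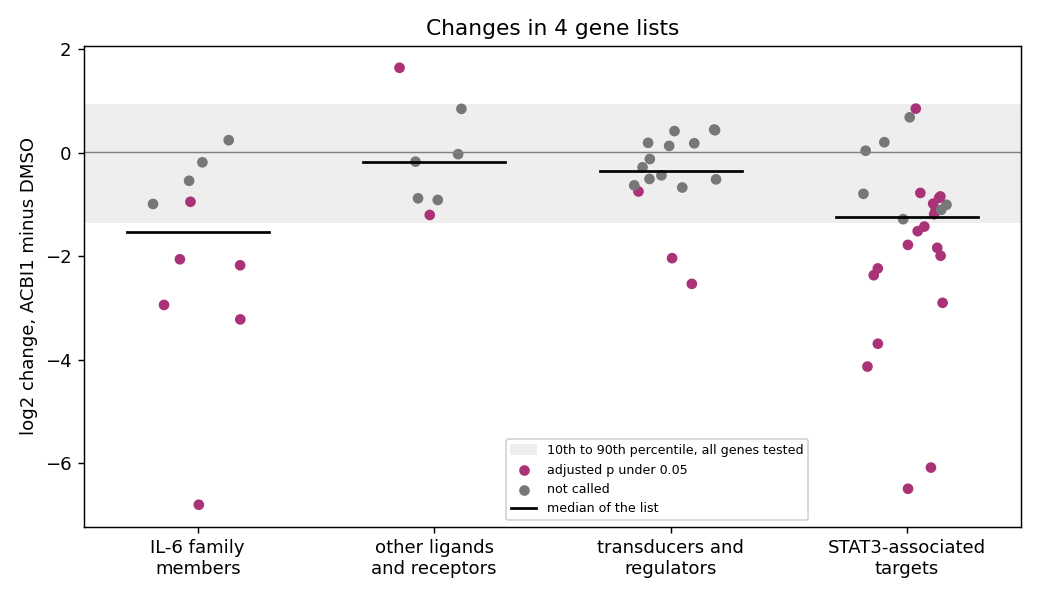
log2 change of ACBI1 minus DMSO for the tested genes of 4 lists, 1 point a gene, purple where the adjusted p was under 0.05; bars are list medians, and the grey band spans the 10th to 90th percentile of all tested genes (-1.33 to 0.92). The medians are -1.52 for the IL-6 family members, -0.17 for the other ligands and receptors, -0.36 for the transducers and regulators and -1.24 for the STAT3-associated targets.

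The summed fibroblast and endothelial markers were lower with ACBI1, as were the called members, and so was the epithelial sum. The 5 fibroblast markers summed to 356 and 790 CPM with DMSO and 71.7 and 223 CPM with ACBI1. Of these 5, 3 were called lower, beside 10.6% of all tested genes. The 4 endothelial markers summed to 12.7 and 49.0 CPM with DMSO and to 0.123 and 0.107 CPM with ACBI1. With DMSO nearly all of the endothelial sum was PECAM1, at 12.2 and 48.1 CPM, and with ACBI1 most of it was KDR, at 0.112 and 0.0610 CPM. VWF and CDH5 had 0 counts in both ACBI1 libraries. Of the 5 epithelial markers tested, 4 were called lower, beside the same 10.6% of all tested genes. The other, EPCAM, had a log2 change of 1.32 that was not called (adjusted p 0.179). The leukocyte sums overlapped between groups, at 0.405 and 1.10 CPM with DMSO and 0.704 and 0.473 CPM with ACBI1, and neither of the 2 leukocyte markers tested was called. The part of these shifts in the changes of the IL-6 family genes was not tested.

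Genes whose levels followed those of IL6 most closely over the 4 libraries were sought among 11159 other genes that averaged 5 CPM or more, by Euclidean distance between log2 CPM centred on the gene's mean. The 5 nearest were POU2F2, APOL3, TNFSF18, ISLR2 and IL1A, at distances of 0.808 to 1.09 log2 units. POU2F2, a POU-domain transcription factor of lymphoid cells, was at 84.1 and 65.1 CPM with DMSO and at 1.23 and 0.839 CPM with ACBI1. IL1A, the cytokine interleukin-1 alpha, was at 339 and 199 CPM with DMSO and at 1.53 and 0.976 CPM with ACBI1. In all 5, as in IL6, DMSO replicate 1 was the highest library. The 5 nearest to STAT3 were HOXB6, PRADC1, JMJD8, TIGD5 and BORCS6, at distances of 0.0687 to 0.121 log2 units, with adjusted p from 0.733 for PRADC1 to 0.868 for JMJD8. JMJD8 was at 57.3 and 77.0 CPM with DMSO and at 44.4 and 81.7 CPM with ACBI1, the same pattern of 1 low and 1 high library in each group as in STAT3. With 4 libraries in 2 groups such likeness is a description only.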

How the data were processed

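RNA-seq of 4 H1792 libraries was analysed, 2 per group, with groups and replicate numbers from the sample titles. The deposited values are raw counts of reads per gene symbol, not normalized. TopHat2 2.1.1, HTSeq 0.11.0 and build hg38 are named in the submitters' processing notes; the annotation and the strand setting are not given in the sources used here. Per the labels' protocols, libraries were made with a kit for DNA libraries, and how RNA was selected is not stated. The 5 closing lines for reads given to no gene (13.9% to 15.4% of reads) were left out. Per library, 3 counts correspond to 0.0335 to 0.0458 CPM, which covers counting error only.

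Genes were filtered with filterByExpr (minimum count 10, minimum total 15), scaled by TMM and tested two-sided on treatment with edgeR 4.0.16 in R 4.3.3. SDs are of CPM; the SE is the log2 change divided by the square root of F, and 95% intervals use the fit's t quantile. For a single value, the smallest p that an exact permutation test of 2 against 2 libraries allows is 0.333. The script was tested on simulated counts. Alternatives were other scalings and filters, the replicate number as a block, DESeq2 1.42.0, limma-voom 3.58.1, stricter thresholds and each library left out. In a fit with 1 library in a group, that library is assumed to vary like the others.

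The members, lists and naming rule were chosen with earlier results of these data known. The text names all members, called genes of the 2 pathway lists, receptor chains and neighbours of members, the 8 called targets with the largest change and the 4 uncalled ones with the highest mean CPM. Coordinates, exonic length and overlap came from GENCODE release 29 (GRCh38), matched by symbol for 59.6% of the symbols and for all 28 genes followed through the alternatives. No protein sequence was used here, and the results on 1 gene are not reported here.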

Additional observations from a re-analysis of the deposited data

How the results depend on the processing

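IL6, LIF, CLCF1, IL11 and IL6R were called lower in each alternative that tested them at an adjusted p under 0.05, each library left out included; IL11 and IL6R were not tested at a mean of at least 5 CPM. LIFR and STAT3 were called in none. Over the 28 genes followed, no change reversed in a fit on all 4 libraries, and 4 changes reversed with 1 library left out. The changes with 1 library left out ranged from -0.72 to 0.20 for STAT3 (0.05 without DMSO replicate 2, 0.20 without ACBI1 replicate 1), from -0.030 to 0.48 for CCND1 and from -1.86 to 0.092 for FOS, with the reversals of CCND1 and FOS without DMSO replicate 2. At an adjusted p under 0.01, 783 genes were called (172 higher, 611 lower), with 3 members, 0 other ligands and receptors, 1 transducer or regulator and 9 targets, by construction of the threshold. With a log2 change of at least 1 required, 794 genes were called higher. With every gene with a count tested by edgeR, 5518 of 32871 genes were called (2202 higher, 3316 lower). That setting called 8 members and 5 transducers and regulators, with a median log2 change over all genes of -0.038. OSMR (edgeR adjusted p 0.0482) and SOCS3 (5.33e-05) were the added members, and the cause was not tested. Among the uncalled targets JUNB (2.21e-05), MYC (0.00670) and FOS (0.00133) also gained a call with every gene tested. DESeq2 called 5 transducers and regulators, and added MYC and JUNB. Over the 6 alternative fits on 4 libraries without a block, the adjusted p ranged from 7.81e-05 to 0.0429 for IL6ST, from 0.0482 to 0.390 for OSMR and from 5.33e-05 to 0.311 for SOCS3.

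Nothing in the labels ties libraries with the same replicate number to a shared batch or culture. Deviations of libraries with the same number correlated across genes (Pearson's r 0.612), with only 2 pairs. With the replicate block, edgeR called 7909 of the 19159 genes tested (3708 higher, 4201 lower), where the main fit called 3331. Among them were 8 members, the added ones again OSMR (adjusted p 0.00798) and SOCS3 (0.000600), and 9 transducers and regulators. MYC (0.0136), JUNB (0.00217) and FOS (0.000734) were called too. These added calls came with more calls over all genes. With 1 library left out, 1379 to 4292 genes were called (415 to 1651 higher, 964 to 2641 lower), with 5 to 7 members, 1 to 2 other ligands and receptors, 1 to 3 transducers and regulators and 10 to 22 targets. The lowest number of genes was called without ACBI1 replicate 1, followed by 1807 without ACBI1 replicate 2, and 858 were called higher without DMSO replicate 2. OSM and CNTFR had at most 5 counts in a library, too few to test at this depth.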
